A study of Danio rerio with 8 samples.

Results

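The neuronal RNA-binding genes of the Elavl, Nova and Rbfox families were followed across bulk libraries of sorted zebrafish hindbrain neurons. The genes were chosen by symbol in the deposited table of raw counts and numbered 8 of 28802 gene rows: *elavl2*, *elavl3* and *elavl4*, *nova1* and *nova2*, and *rbfox1*, *rbfox2* and *rbfox3a*. All 8 had a row, and 7 had reads. The study asked whether vestibular projection neurons acquire their normal transcripts when the extraocular motor neurons that they contact are not specified. Neurons came from *phox2a* null larvae (*phox2a*-/-) and from siblings that were *phox2a*+/+ or +/- and were combined, both harvested between 72 and 74 hours post-fertilization (hpf). Both genotypes carried the reporters Tg(isl1:GFP) and Tg(UAS:E1b-Kaede), the second driven by Tg(-6.7Tru.Hcrtr2:GAL4-VP16), on a background without pigment. Null larvae were picked by eye for lost isl1:GFP in the oculomotor and trochlear nuclei, and the labels do not say which of several CRISPR alleles they carried. Cells of pooled larvae were sorted on green fluorescence without separating Kaede from GFP, so that labelled neurons other than the intended projection neurons of the tangential nucleus can be included. Each run gave 1 library per genotype. Runs are named A to D by ascending code in the deposited column names, and runs A, B and C were compared (3 null libraries against 3 sibling libraries). A lower level in such a library can mean fewer cells of a type or less RNA per cell, and these cannot be told apart.

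Elavl proteins (also called Hu proteins) carry RNA recognition motifs and bind U-rich stretches of neuronal transcripts, where they affect splicing, stability and translation. HuC, encoded by *elavl3*, and HuD, encoded by *elavl4*, appear as neurons leave the cell cycle, and *elavl3* is a standard marker of postmitotic neurons in zebrafish. Nova proteins bind clusters of the tetramer YCAY through KH domains and steer alternative exons of synaptic transcripts in mammals. Rbfox proteins bind UGCAUG near alternative exons, and mammalian RBFOX3 is the antigen NeuN of mature neurons. Reads per gene measure the amount of each transcript and not the splicing that these proteins regulate.

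Null libraries held 9579375 to 16992689 reads on genes, and sibling libraries 18657956 to 19968857. The null library of run C stood apart, with reads on 11087 genes (16675 to 18409 in the other 5), 62.4% of its listed reads not aligned (11.8% to 16.1% in the other 5) and a TMM factor of 0.518 (1.104 to 1.217 in the other 5). TMM factors rescale libraries by composition, and levels below are counts-per-million of gene reads after these factors (TMM CPM) unless plain CPM is named. Values that this library decides are given with and without it. The targeted gene *phox2a* had 119 ± 60.7 CPM in null libraries and 395 ± 150 CPM in siblings (SD, n = 3 libraries each). On this scale all null libraries lay below all siblings, as for 9.59% of all genes tested, but the groups overlapped after TMM. In run C *phox2a* had 205 TMM CPM in the null library and 200 TMM CPM in the sibling library. All 10 neuronal markers had reads in all 6 libraries. They summed to 10061, 10298 and 6500 CPM in the null libraries of runs A, B and C, and to 7515 to 13132 CPM in siblings. Glial markers summed to 2085, 1488 and 628 CPM in the null libraries, in the same order, and to 1050 to 1796 CPM in siblings. Markers of progenitors and the cell cycle summed to 195 to 211 CPM in null libraries and 133 to 222 CPM in siblings. A mixed list of 5 genes held *evx2*, *isl1*, *hoxd4a*, *barhl2* and the targeted *phox2a*. In the paper *evx2* is the reference for projection neurons, while *isl1*, *hoxd4a* and *barhl2* mark other populations in the dataset. The 5 genes had reads in all 6 libraries. They summed to 1378, 1481 and 554 CPM in the null libraries of runs A, B and C, and to 1151 to 2159 CPM in siblings. This sum is not a measure of the projection neurons. Skin markers summed to 5.01 to 2753 CPM in null libraries, highest in run C, and reached 3415 CPM in siblings, highest in run A. Over all 14824 genes tested, edgeR's quasi-likelihood test called 0 (0%), where a call took an adjusted p below 0.05 together with a log2 fold change beyond 2 in either direction. The unadjusted p was below 0.05 for 477 genes (3.22%), and DESeq2, the tool that the study used, called 128 of 15194 genes (0.842%).

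The transcripts of *elavl3* and *elavl4* were counted in every library, and the log2 ratio of the null over the sibling library lay between -0.36 and 0.07 in runs A and B. In the null library of run C, *elavl4* was at more than 4 times the mean of the other null libraries after TMM, while *elavl3* was not. No read of *elavl2* was counted in any library.

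*elavl3* (HuC) was counted with 37094, 42270 and 13422 reads in null libraries (runs A, B and C, as throughout) and with 50069, 56061 and 40182 reads in sibling libraries. These were 1962, 2526 and 2707 TMM CPM in null libraries, against 2157, 2401 and 1937 TMM CPM in siblings. The ranges overlapped, and the highest and lowest sibling libraries differed 1.24-fold, against a median of 2.03-fold over 13188 tested genes with reads in every sibling library. Those genes were not matched to *elavl3* in level. Null over sibling, the log2 fold change was 0.15 (standard error 0.39, 95% interval -0.75 to 1.05, adjusted p = 1.00 by edgeR). In plain CPM, *elavl3* was lower in the null library of 3 of 3 runs (2124 ± 696 CPM in null libraries and 2528 ± 385 CPM in siblings, SD, n = 3 each), so the sign of its difference changed with the scaling.

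*elavl4* (HuD) had 26265, 25799 and 32317 reads in the null libraries and 41368, 36932 and 35008 reads in the siblings, in the order of the runs. Its TMM levels were 1389, 1542 and 6517 CPM in null libraries, against 1782, 1582 and 1687 CPM in siblings. The null libraries of runs A and B lay below every sibling library, and that of run C lay far above. The siblings differed by at most 1.13-fold. Its log2 fold change, 0.90 with a standard error of 0.65 (adjusted p = 1.00 by edgeR), rested on run C, since it was -0.21 (standard error 0.22, 95% interval -0.74 to 0.32) without that null library. In plain CPM the same library had 3374 CPM, against 1546 and 1702 CPM in the other null libraries and 1876 to 2072 CPM in siblings.

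*elavl2* (HuB in mammals, where it is a further neuronal Hu gene) was listed with 0 reads in each of the 8 deposited libraries, runs outside the comparison included. With no read counted, up to 3 reads remain possible, or 0.150 to 0.313 CPM across the 6 libraries, for counting error only. In all, 5050 of 28802 gene rows (17.5%) had no read in any library. Reads that aligned to several places made up 1.74% to 3.35% of all listed reads in each of the 6 libraries compared, and reads that overlapped several genes 0.585% to 2.96%. Neither kind was given to a gene, and their part in the 0 of *elavl2* was not tested. The gene therefore entered no fit.

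The Nova genes differed in their pattern. *nova1* was lower in every null library than in every sibling library on both scales, as were 7.53% of all genes tested, and was not called. *nova2* overlapped between genotypes in runs A and B and was several-fold higher in the null library of run C.

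*nova1* had 847, 429 and 271 reads in the null libraries and 1811, 1561 and 1232 reads in the siblings. TMM levels were 44.8, 25.6 and 54.6 CPM in null libraries, against 78.0, 66.9 and 59.4 CPM in siblings. The gap between the groups was small, since the null and sibling libraries of run C were nearest to each other. In plain CPM the gap was wider, with 49.8, 28.3 and 28.3 CPM in null libraries against 90.7, 81.4 and 66.0 CPM in siblings. Means of TMM levels were 41.7 ± 14.8 CPM in null libraries and 68.1 ± 9.38 CPM in siblings (SD, n = 3 each). The log2 fold change of *nova1* was -0.71 (standard error 0.63, 95% interval -2.14 to 0.73, adjusted p = 1.00 by edgeR). An exact permutation test (two-sided, on log2 values) gave p = 0.1, the smallest that 3 libraries against 3 allow. Such a separation, all null below all sibling libraries, was seen for 7.53% of all genes tested after TMM and for 9.59% in plain CPM, so 1 such gene among the 7 detected is near the background. Without the null library of run C, the log2 fold change was -0.96 (standard error 0.38, 95% interval -1.86 to -0.06), with an unadjusted p of 0.039, as under 0.05 for 4.05% of genes in that fit, and an adjusted p of 1.00. Its sign was negative in all 18 alternative fits, which share most of their libraries.

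*nova2* had 12304, 9885 and 24962 reads in the null libraries and 11486, 16657 and 17551 reads in the siblings. The levels were 651, 591 and 5034 TMM CPM in null libraries, against 495, 714 and 846 TMM CPM in siblings. The null library of run C was 8.11 times the mean of the other null libraries after TMM and 3.79 times in plain CPM. Over 14698 tested genes with reads in those other libraries, the median of this ratio was 0.183 after TMM. That median is not matched for level, and 33.8% of all genes tested had 0 reads in the null library of run C. The neuronal markers summed to 12556 TMM CPM in that library, against 9042 and 9328 TMM CPM in the null libraries of runs A and B. For *nova2* the other null libraries lay within the range of the siblings. The log2 fold change was 1.61 (standard error 0.86, 95% interval -0.35 to 3.58, adjusted p = 1.00), and -0.15 (standard error 0.29, 95% interval -0.84 to 0.53) without that library. Without the null library of run B, edgeR gave *nova2* an unadjusted p of 0.040 (adjusted p = 0.76), and 1021 of 16184 genes were under 0.05. With no expression filter its edgeR p was 0.041 (adjusted p = 0.73), and 1228 of 23680 genes were under 0.05. Both fits include the null library of run C. DESeq2 gave *nova2* a log2 fold change of 1.93 and a missing p.

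In the null libraries of runs A and B, *rbfox1* and *rbfox2* lay within the range of the 3 sibling libraries after TMM, while *rbfox3a* lay under that range in run A and above it in run B. All 3 were highest in the null library of run C after TMM but not in plain CPM. The direction of *rbfox1* and *rbfox2* changed with the scaling, and none of the 3 was called.

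*rbfox1* had 14463, 13039 and 6840 reads in null libraries and 17571, 14603 and 17688 reads in siblings. Its TMM levels were 765, 779 and 1379 CPM in null libraries, against 757, 626 and 853 CPM in siblings. In plain CPM it was 808 ± 81.9 CPM in null libraries and 863 ± 94.6 CPM in siblings (SD, n = 3 each), a difference smaller than the SD of either genotype. For *rbfox1* the log2 fold change was 0.39 (standard error 0.45, adjusted p = 1.00 by edgeR) and 0.04 (standard error 0.24, 95% interval -0.53 to 0.61) without the null library of run C.

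*rbfox2*, which in mammals is also expressed outside the nervous system, had 7489, 6649 and 5456 reads in null libraries and 9117, 10963 and 8741 reads in siblings. The levels were 396, 397 and 1100 TMM CPM in null libraries, against 393, 470 and 421 TMM CPM in siblings. In plain CPM they were 483 ± 75.0 CPM in null libraries and 499 ± 63.1 CPM in siblings (SD, n = 3 each). For *rbfox2* the log2 fold change was 0.56 (standard error 0.55, adjusted p = 1.00) and -0.12 (standard error 0.23, 95% interval -0.66 to 0.42) without that null library.

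*rbfox3a*, a zebrafish counterpart of the gene for NeuN, had 5201, 7217 and 3721 reads in null libraries and 7967, 6579 and 6306 reads in siblings. Its TMM levels were 275, 431 and 750 CPM in null libraries, against 343, 282 and 304 CPM in siblings. The null library of run A lay under every sibling library and those of the other runs lay above, so the runs did not share a direction. For *rbfox3a* the log2 fold change was 0.65 (standard error 0.52, adjusted p = 1.00) and 0.18 (standard error 0.28, 95% interval -0.48 to 0.83) without the null library of run C.

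**Figure D1:**
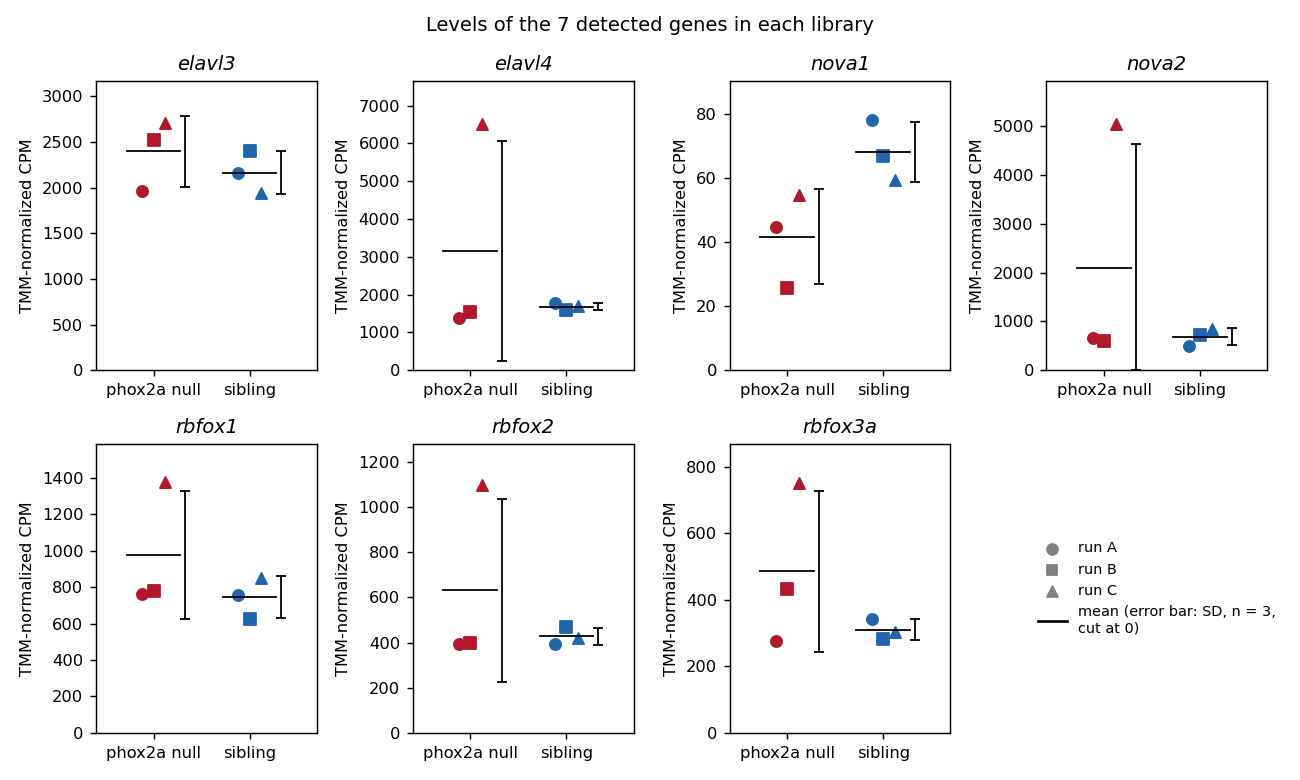
TMM-normalized counts-per-million (vertical axes, each from 0) of the 7 detected genes in *phox2a* null (left, red) and sibling (right, blue) libraries. Symbols give the run, the horizontal line the mean and the error bar the SD of 3 libraries, cut at 0 for *nova2*. The null library of run C (red triangle) is the highest null library for all 7 genes. Of the genes shown, only *nova1* has groups that do not overlap (10.6% of all genes tested, in either direction).

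Across the 7 detected genes, 0 were called, as over all genes (0%), and 0 had an unadjusted p under 0.05 (3.22% over all genes). DESeq2 called 0 of the 6 for which it gave a p (0.842% over all genes), and edgeR over all 4 runs called 0 of 7 (0.302% over all genes). The exact permutation tests gave p from 0.1 to 1. The median log2 fold change of the 7 genes was 0.56, against -0.15 over all genes tested, and 6 of 7 were positive (44.1% of all genes). Of the genes tested, 33.8% had 0 reads in the null library of run C. In the fit to the 7033 genes with at least 10 reads in every library, the median of all genes was 0.049. There *elavl3* was at 0.03, *elavl4* at 0.69, *nova1* at -0.85 and *nova2* at 1.37. In the same fit *rbfox1* was at 0.24, *rbfox2* at 0.38 and *rbfox3a* at 0.49. With total gene reads in place of TMM the median of the 7 was -0.046, against -0.36 over all genes, and *elavl3*, *rbfox1* and *rbfox2* turned negative. Relative to the median of all genes under that scaling, *elavl3* was at 0.11, *rbfox1* at 0.27 and *rbfox2* at 0.31. Without the null library of run C, the median of the 7 was -0.12, against -0.03 over all genes, and 3 of 7 were positive. For the genes other than *nova1*, the 95% intervals of that fit reached from -0.84 to 0.83 at the widest, and for *nova1* from -1.86 to -0.06. With all 6 libraries, the intervals of all 7 genes reached beyond a 2-fold difference. They were -0.75 to 1.05 for *elavl3* and -0.35 to 3.58 for *nova2*, so a difference of 2-fold is not excluded. The fit without the null library of run C leaves 2 null libraries and has no term for the run. The spread behind its p-values mixes differences between pools of larvae with differences between runs.

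**Figure D2:**
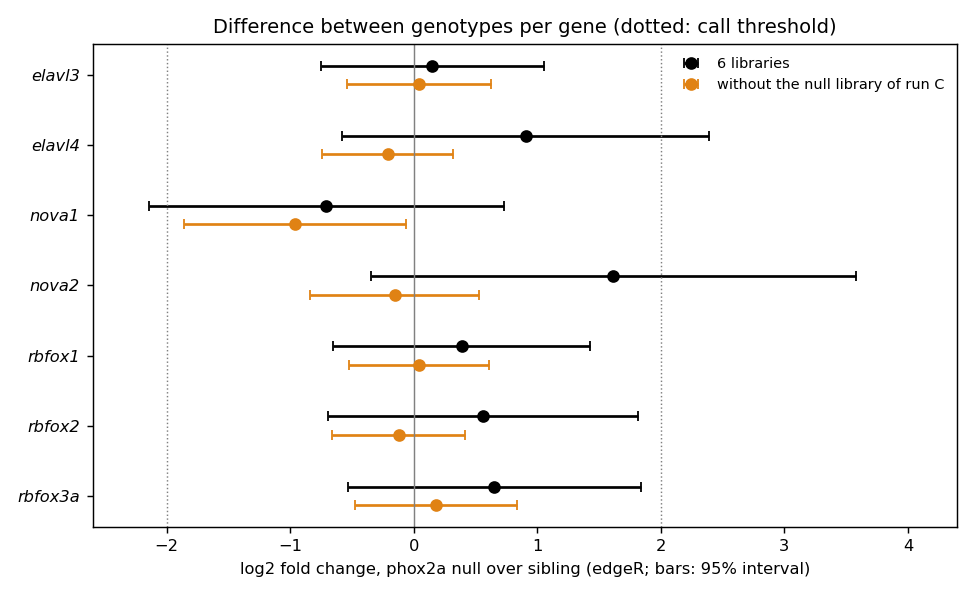
Log2 fold change of *phox2a* null over sibling libraries for the 7 detected genes, from edgeR, with 95% intervals. Black points use all 6 libraries and orange points leave out the null library of run C, which moves *nova2* to -0.15 from 1.61 and *elavl4* to -0.21 from 0.90. Dotted lines mark the threshold of 2 for a call.

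Ratios of reads between genes of a family within a library do not depend on the scaling between libraries. They were taken as a description and were not tested, and since reads were not divided by transcript length, a ratio does not say which gene had more molecules. The ratio of *elavl4* to *elavl3* reads was 0.708, 0.610 and 2.41 in the null libraries of runs A, B and C, against 0.826, 0.659 and 0.871 in siblings. Only the null library of run C lay apart, and in both other runs the null ratio was slightly lower than that of its sibling library. The share of *elavl4* among the Elavl reads there was 70.7% (95% Wilson interval 70.2% to 71.1%, counting error only), against 39.7% to 46.6% in siblings.

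The ratio of *nova2* to *nova1* reads was 14.5, 23.0 and 92.1 in null libraries, against 6.34, 10.7 and 14.2 in siblings. It was higher in the null library of 3 of 3 runs, and the lowest null library was barely above the highest sibling library. The share of other gene pairs whose ratios separate in this way was not computed, and the sibling library of run D, outside the comparison, had a ratio of 56.7, above the null libraries of runs A and B. *nova1* made up 6.44%, 4.16% and 1.07% of the Nova reads in null libraries, against 13.6%, 8.57% and 6.56% in siblings. Within the Rbfox family, the ratio of *rbfox2* to *rbfox1* was 0.518, 0.510 and 0.798 in null libraries, against 0.519, 0.751 and 0.494 in siblings. The ratio of *rbfox3a* to *rbfox1* was 0.360, 0.553 and 0.544 in null libraries, against 0.453, 0.451 and 0.357 in siblings. Both Rbfox ratios overlapped between genotypes.

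**Figure D3:**
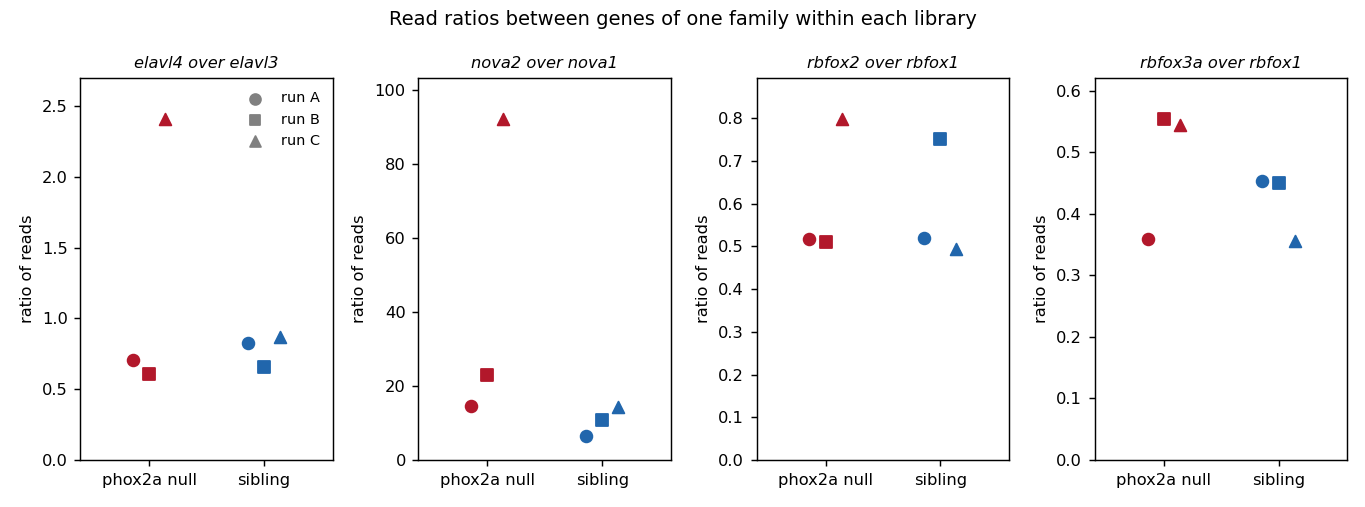
Ratio of reads (vertical axes, linear from 0) between genes of the same family within each *phox2a* null (left, red) and sibling (right, blue) library, with the run given by the symbol. The *elavl4* to *elavl3* ratio is 2.41 in the null library of run C and 0.610 to 0.871 in the other 5 libraries, and the *nova2* to *nova1* ratio is higher in the null library of each run.

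Close relatives of these genes were read from the same table. *elavl1a*, one of the zebrafish counterparts of the widely expressed HuR, had 263, 301 and 402 TMM CPM in null libraries, against 122, 148 and 236 TMM CPM in siblings. The groups did not overlap on this scale (3.1% of all genes had every null library above every sibling library, and 10.6% did not overlap in either direction), but in plain CPM they did (208 to 333 CPM in null libraries and 142 to 262 CPM in siblings). The log2 fold change of *elavl1a* was 0.93 (standard error 0.50, adjusted p = 1.00 by edgeR) and 0.73 without the null library of run C. *elavl1b*, the other counterpart, had 490 ± 99.6 TMM CPM in null libraries and 459 ± 172 TMM CPM in siblings (SD, n = 3 each), a difference within the spread. *rbfox3b* had 51.8, 40.3 and 6.45 TMM CPM in null libraries, against 33.3, 36.1 and 39.7 TMM CPM in siblings. Only the null library of run C was low, with 32 reads. *rbfox1l*, which in zebrafish is known from muscle, had 11 reads, all in the sibling library of run B.

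Other regulators of RNA processing formed a list of 46 symbols, which includes *elavl1a*, *elavl1b*, *rbfox1l* and *rbfox3b* from above. Of the 46 symbols, 39 had a row and 38 had enough reads. None was called (0% of all genes), and 1 had an unadjusted p under 0.05 (3.22% of all genes). The median log2 fold change was 0.35 with 21 positive and 17 negative, against -0.15 over all genes tested. It was 0.11 without the null library of run C (-0.03 over all genes) and -0.091 with total gene reads (-0.36 over all genes). In the edgeR fit without that library, 2 genes of the list were higher and 0 lower at an unadjusted p under 0.05. These were *khdrbs2* and *tardbp*, and over all 16687 genes of that fit 288 were higher and 387 lower. In the fit to all 6 libraries, the gene with the smallest p was *hnrnpa1b*, which encodes a counterpart of the splicing repressor hnRNP A1. It had 62.0, 101 and 1662 TMM CPM in null libraries, against 53.6, 64.9 and 54.2 TMM CPM in siblings. Its log2 fold change was 3.40 (standard error 1.22, adjusted p = 1.00) and 0.49 without the null library of run C. *mbnl2*, of the Muscleblind splicing factors, had 27.5, 24.98 and 232 TMM CPM in null libraries, against 25.7, 11.4 and 19.4 TMM CPM in siblings. *fmr1*, whose mammalian product represses translation at synapses, had 153, 135 and 1586 TMM CPM in null libraries, against 120, 189 and 166 TMM CPM in siblings. These genes were picked by p in a fit that includes the null library of run C. Like *nova2* and *elavl4*, they were several-fold higher in that library than in the other null libraries. Their log2 fold changes without it were 0.47 for *mbnl2* and -0.15 for *fmr1*.

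Transcripts known in mammals as targets of Hu, Nova or Rbfox proteins formed a list of 29 symbols, of which 26 had a row and 25 had enough reads. None was called, and 0 had an unadjusted p under 0.05 (3.22% of all genes). The median log2 fold change was -0.16 with 11 positive and 14 negative, against -0.15 over all genes tested. Without the null library of run C it was -0.33 with 8 positive and 18 negative, against -0.03 over all genes. In that edgeR fit 2 genes of the list were lower and 0 higher at an unadjusted p under 0.05. Over all 16687 genes of the fit, 387 were lower and 288 higher at that p. With total gene reads it was -0.55 with 4 positive and 21 negative, against -0.36 over all genes. *ank3a*, for ankyrin G of the axon initial segment, had 99.1, 92.2 and 1004 TMM CPM in null libraries, against 77.8, 132 and 136 TMM CPM in siblings. *grin1a*, for the obligatory subunit of NMDA receptors, had 321, 205 and 1497 TMM CPM in null libraries, against 275, 133 and 323 TMM CPM in siblings. *bdnf*, for a neurotrophin, had 35.6, 28.1 and 4.44 TMM CPM in null libraries, against 64.7, 17.9 and 83.8 TMM CPM in siblings. These 3 had the smallest p of the list in the fit to all 6 libraries, and their groups overlapped. Among the other targets tested, the groups did not overlap for *cacna1bb*, which was lower in every null library, as were 7.53% of all genes. It had 15.5, 12.8 and 26.0 TMM CPM in null libraries, against 37.6, 33.4 and 34.7 TMM CPM in siblings (log2 fold change -0.96, standard error 0.77). For the 3 genes of smallest p, the log2 fold changes without the null library of run C were -0.28 for *ank3a*, 0.10 for *grin1a* and -0.81 for *bdnf*. Whether splicing of these transcripts differed was not analysed here, since counts per gene do not hold exon usage.

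**Figure D4:**
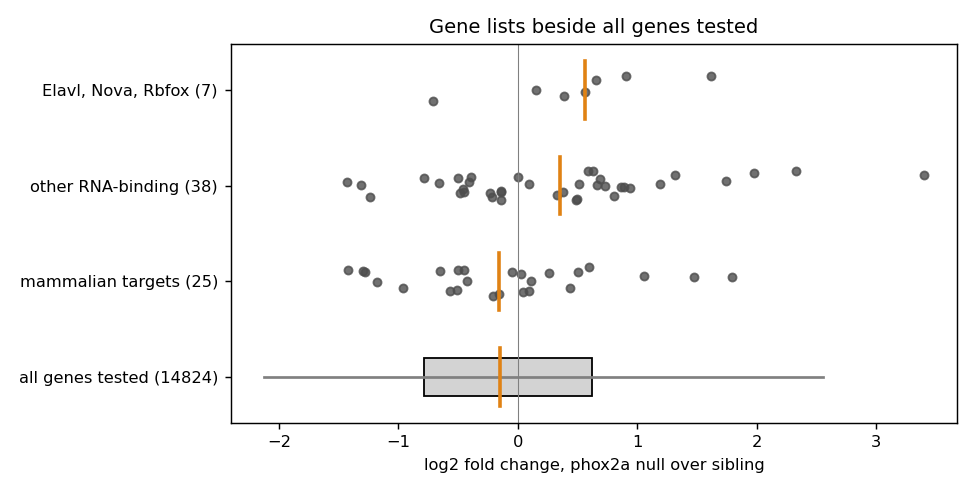
Log2 fold change of *phox2a* null over sibling libraries (horizontal axis) for each tested gene of 3 lists, with all 14824 tested genes below as a box (quartiles) and line (5th to 95th percentile). Orange bars are medians, at 0.56 for the 7 Elavl, Nova and Rbfox genes, 0.35 for other RNA-binding genes, -0.16 for mammalian targets and -0.15 for all genes.

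Genes whose log2 levels ran most like the mean of a family over the 6 libraries were named by the root mean square difference of centred log2 TMM CPM. For Elavl they were *ssu72* (0.09), *ndufb3* (0.09) and *pou3f2b* (0.09), against a median of 1.20 over the genes compared. For Nova they were *ca10a* (0.07), *uba1* (0.12) and *aplp2* (0.13), against a median of 1.30. For Rbfox they were *adgrl3.1* (0.08), *csdc2a* (0.09) and *ssu72* (0.10), against a median of 1.20. The members themselves differed from their own family mean by 0.33 for *elavl3* and *elavl4*, 0.60 for *nova1* and *nova2*, and 0.15 to 0.17 for the Rbfox genes. The genes named above were picked as the closest of 9154, so their smaller differences follow largely from that choice. Where a family mean is taken over 2 genes, both lie equally far from it by construction. The genes outside the families that are named here were highest in the null library of run C, as *pou3f2b*, a neuronal POU factor, was with 378 TMM CPM against 146 to 196 TMM CPM in the other 5 libraries.

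Run D was taken to be the repeat that the study left out for quality. It had 735217 gene reads in its null library and 15865368 in its sibling library. *elavl3* had 262 reads (356 CPM) in the null library and 37930 reads (2391 CPM) in the sibling library, and *elavl4* had 30 reads (40.8 CPM) in the null library and 38606 reads (2433 CPM) in the sibling library. *nova1* had 0 reads in the null library, which allows up to 4.08 CPM, and 418 reads (26.3 CPM) in the sibling library. *nova2* had 22 reads (29.9 CPM) in the null library and 23711 reads (1495 CPM) in the sibling library. Among the Rbfox genes of that null library, *rbfox3a* alone had 19884 reads, beside 204 of *rbfox1* and 1 of *rbfox2*. The sibling library had 3452, 2632 and 10101 reads of these 3 genes. Neuronal markers summed to 132 CPM in the null library and 6273 CPM in the sibling library.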

How the data were processed

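Bulk libraries of sorted hindbrain neurons, 1 per genotype and run, were analyzed from a table of counts that the authors deposited, whole reads per gene and library, aligned to GRCz11 to which Kaede and GFP had been added. Aligner and counting program are not given in the sources used here. The authors also deposited a normalized signal, each count divided by 1 size factor per library, equal to the size factors DESeq2 gives for the 8 libraries together, and it was not tested. Columns carry a genotype and a run code but no replicate number. Rows that name no gene held 41.2% to 84.3% of the listed reads in the 6 libraries compared and stayed out. Gene names are those of the table, and counting was not stated to use strand. In RefSeq's annotation of another assembly, GRCz12tu, the spans of *elavl3*, *elavl4*, *nova1*, *rbfox2* and *rbfox3a* overlap other genes, whose reads may not be told apart.

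Genotypes were compared over runs A, B and C, taken as the repeats that the study kept, by the quasi-likelihood test of edgeR 4.0.16 after filterByExpr and TMM, with Benjamini-Hochberg adjustment over 14824 genes. Calls took an adjusted p below 0.05 and a log2 fold change beyond 2 in either direction, which are the thresholds of the study. The study tested with DESeq2 and reported differentially expressed genes, so the edgeR fit is not a repeat of its test. Standard errors are the coefficient over the square root of its F value. DESeq2 1.42.0, other scalings and filters, robust fitting, the run as a block, all 4 runs, and leaving out each library or run were alternatives. The pairing comes from the series' design, in which each repeat gave both genotypes. Deviations of same-run libraries from their genotype means correlated by 0.027, 0.082 and 0.050 over 14824 genes. Those of null and sibling libraries from different runs correlated by -0.065 to 0.001, below every same-run value. Since deviations were taken from genotype means, positive same-run values lower the different-run values on average by construction. The fits were tested on simulated counts in which 200 genes changed by a log2 of 3. At a dispersion (spread between replicates) of 0.1, edgeR recovered 198 and DESeq2 199, with 0 false calls each. At 0.5, edgeR recovered 46 with 1 false call, and DESeq2 127 with 47 false calls. At such a spread, a gene that edgeR does not call may still differ. Which of these spreads is nearer to that of the libraries compared was not tested. Recovery with a library like the null library of run C was not tested either. Software was R 4.3.3 and Python 3.11.15.

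The members, lists and rules were chosen with earlier results of these data known. Named are all 8 genes, *phox2a*, the 3 genes with the smallest p of each list, the 3 genes most like each family among those with at least 10 TMM CPM on average, and close relatives with names like those of the members, which were added after their values were seen. Outside these rules, *khdrbs2* and *tardbp* are named for their p in the fit without the null library of run C, and *cacna1bb* for its separated groups. Which 2 target genes were lower at an unadjusted p under 0.05 in that fit is not given.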

Additional observations from a re-analysis of the deposited data

Results flagged for a closer look

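In the null library of run D, *rbfox3a* stood at 27045 CPM of gene reads, far above the other 3 null libraries (306 to 476 CPM). Its gap to the nearest of them was 0.994 of the range of the 4, above the 95% critical value of Dixon's test, which chance exceeds in about 1 of 20 groups (14 groups were examined). The same value was 124 times that of the sibling library of run D (218 CPM), in a run outside the comparison of runs A to C that entered only the alternative fit over all 4 runs. That null library had 2214 genes with reads, and 93.2% of its gene reads lay on 50 genes, and the part of these in the value was not tested. *rbfox1* was also higher in the null library of run D (277 CPM, from 204 reads) than in its sibling library (166 CPM).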

How the results depend on the processing

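The 7 detected genes kept the sign of their log2 fold change in 117 of 126 alternative fits, and none was called in any. Most of these fits include the null library of run C. Without that library the sign turned for *elavl4* (-0.21), *nova2* (-0.15) and *rbfox2* (-0.12). Without both libraries of run C it turned for *elavl3* (-0.037), *elavl4* (-0.21) and *rbfox2* (-0.14). With total gene reads in place of TMM, the sign turned for *elavl3* (-0.25), *rbfox1* (-0.093) and *rbfox2* (-0.046). The median of all genes moved to -0.36 from -0.15 under that scaling. With 1 library or 1 run left out, log2 fold changes ranged from -0.037 to 0.22 for *elavl3*, from -0.21 to 1.23 for *elavl4*, from -1.05 to -0.47 for *nova1*, from -0.15 to 2.08 for *nova2*, from 0.04 to 0.51 for *rbfox1*, from -0.14 to 0.88 for *rbfox2* and from 0.16 to 0.95 for *rbfox3a*. The low end came from leaving out run C or its null library for all 7. Over all genes, edgeR called 0 in each of these fits. DESeq2 called 128 genes, 287 with the run as a block, and edgeR over all 4 runs called 40, and their causes were not tested. With the run as a replicate block, edgeR gave log2 fold changes of 0.14 for *elavl3*, 0.49 for *elavl4*, -0.77 for *nova1*, 0.86 for *nova2*, 0.34 for *rbfox1*, 0.38 for *rbfox2* and 0.54 for *rbfox3a*. That edgeR fit called 0 of all genes, as did the fit without the block. Over all 4 runs, *rbfox3a* had a log2 fold change of 8.85 (adjusted p = 0.35 by edgeR). Read shares per kilobase were not run, since no transcript lengths were used. For *elavl2*, at 0 reads, depth alone sets upper bounds of 0.150 to 0.313 CPM in the 6 libraries compared and 4.08 CPM in the null library of run D.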
